A study of Mus musculus with 2 samples.

Results

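The genes described here are 10 genes of the unfolded protein response (UPR), taken by symbol from the 22620 genes counted in single cells of mouse breast tumours and of the paired lymph nodes (LNs). They are the endoplasmic reticulum (ER) chaperones and folding factors Hspa5, Hsp90b1, Pdia4, Sdf2l1, Creld2 and Dnajb9, the degradation factor Herpud1, and the transcription factors Xbp1, Atf4 and Ddit3. All 10 were found by symbol in both libraries. The C57BL/6J mice carried tumours of EO771-HEVM3, a breast cancer line that the study derived from EO771 by passing cells in mice to enrich for those that spread through high endothelial venules. There was 1 library of primary tumours and 1 of LNs, each made from pooled tissue of 6 mice, and no treated or tumour-free group was included. Both tissues came from tumour-bearing mice of the same strain, and the tumour was digested with other enzymes and for longer than the LN. The question put to the data was where, among the cell types of the 2 tissues, these genes were high or low.

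The UPR is the set of signalling routes that start when unfolded proteins build up in the ER. The sensor IRE1 splices the mRNA of Xbp1, the sensor PERK slows translation and lets the protein ATF4 accumulate, and the sensor ATF6 is cut to release a transcription factor. The targets of these routes are chaperones, disulphide isomerases and degradation factors, and cells that secrete much protein, such as plasma cells, are known to keep them high. Counts of the 3′ ends of transcripts do not separate spliced from unspliced Xbp1 and do not measure ATF4 protein or any sensor's activity.

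Promoter sequences are shown for the 4 members whose promoters held a known UPR motif, since several members were high together in some cell types. RefSeq promoters (GRCm38.p6, from 250 bases before to 50 bases after the start site) were at hand for all 10 members and were searched on both strands. The letters searched were CCAAT and CCACG with 9 bases of any kind between them for the ER stress response element (ERSE), ATTGG and CCACG with 1 base between them for ERSE-II, TGACGTGG for the XBP1-binding UPR element and TGATGNAA for the C/EBP-ATF response element (CARE). Each sequence is written 5′ to 3′ on the strand of its gene, and capitals mark the matched letters. The windows were chr2:34772000-34772068 (plus strand) for Hspa5 and chr15:88819495-88819563 (plus strand) for Creld2. Those of Hsp90b1 and Herpud1 were chr10:86705508-86705681 (minus strand) and chr8:94386292-94386412 (plus strand). The gene spans given below are from GENCODE, whose start sites can differ from those of RefSeq. The Hspa5 window lies inside its GENCODE span, and the Hsp90b1 window meets the edge of its span.
Hspa5: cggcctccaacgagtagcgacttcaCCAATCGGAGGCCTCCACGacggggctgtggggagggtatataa
Creld2: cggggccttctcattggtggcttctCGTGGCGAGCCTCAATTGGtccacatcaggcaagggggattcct
Hsp90b1: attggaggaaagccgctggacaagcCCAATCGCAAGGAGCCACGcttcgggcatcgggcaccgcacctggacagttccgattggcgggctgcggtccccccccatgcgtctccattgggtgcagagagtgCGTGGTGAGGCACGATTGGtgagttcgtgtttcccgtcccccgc
Herpud1: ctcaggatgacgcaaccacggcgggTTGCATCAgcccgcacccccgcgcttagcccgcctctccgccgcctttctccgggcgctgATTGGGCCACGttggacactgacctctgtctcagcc
The ERSE was found in 3 of the 10 members, once in Hspa5, once in Creld2 on the opposite strand, and in Hsp90b1 once on each strand. It was found in 39 of all 32851 promoters of the same length (0.119%). The ERSE-II was found only in Herpud1 among the members and in 12 promoters (0.0365%) in all. Herpud1 also held the CARE, on the opposite strand, which occurred in 1304 promoters (3.97%). The UPR element was found in 222 promoters (0.676%) and in none of the members. No match overlapped another. A match is a description of the letters and not a binding site, and the absence of a match says only that the letters are not in this window.

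The deposited tables held 12427 primary tumour cells with 173317475 unique molecular identifiers (UMIs, 1 per captured transcript) and 11617 LN cells with 122207852 UMIs. After the limits of the study and removal of doublets, 8756 and 9689 cells were kept, with a median of 9383 and 2324 UMIs. The libraries shared 47 deposited barcodes, 31 of them among the kept cells. Cell classes were rebuilt from the counts, since no file names cell types, so a difference from the study's own classes may come from these rebuilt names. The level of a gene in a class is the sum of its UMIs over all cells of that class, scaled to counts per 1000000 UMIs (CPM) and given with an exact 95% Poisson interval. They are given for the 19 pairs of a class and a library with at least 20 cells, 9 in the primary tumour and 10 in the LN. With 1 library per tissue and no map from cells to mice, no test was possible, and every interval covers counting error only, not the spread between mice. Different genes are not compared with each other in level.

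Before the results, 3 features of the cells have to be stated. HEC-like cells, named after high endothelial cells (HECs), were 71 LN cells in 2 endothelial subclusters led by Glycam1 and Fut7, of which 53 had a median of 30825 UMIs and 18 a median of 2324.5 UMIs. Hspa5, Hsp90b1, Sdf2l1 and Creld2 were themselves among the 10 leading genes of the smaller subcluster, although all 10 members had been left out of the genes used for clustering. Only 41 of the 71 cells had a UMI of at least 2 of the 3 HEC genes Glycam1, Chst4 and Fut7, and 30 had a UMI of 0 or 1 of them. The 3 genes were at 38.5, 0 and 3.21 CPM in these 30 cells, against 5579, 1527 and 1680 CPM in the 41. The summed level of 7 general endothelial markers was 881 CPM in HEC-like cells, 1652 CPM in the other 104 LN endothelial cells and 5314 CPM in 46 primary tumour endothelial cells. All 7 markers were detected in each of the 3 classes, and the HEC genes summed to 5837 CPM, 39.1 CPM and 0 in the same order. The Jchain-high cells were 102 LN cells of the B lineage, with a summed level of 12659 CPM over 6 plasma cell markers against 200.2 CPM in the 4610 other B lineage cells. Their leading genes were immunoglobulin genes, Jchain and Slpi.

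The 10 members together were highest in the Jchain-high B lineage cells and next highest in the HEC-like cells of the LN. Their summed level was 16679 CPM in Jchain-high cells, 4972 CPM in HEC-like cells, 4042 CPM in plasmacytoid dendritic cells of the LN and 4026 CPM in fibroblasts of the primary tumour. The rank of the HEC-like cells rested on a few cells. Without the 5 cells of each class with most UMIs of the members, an alternative added after the data were seen, they were at 3002 CPM, under plasmacytoid dendritic cells at 3922 CPM and fibroblasts at 3417 CPM, while Jchain-high cells stayed first at 14371 CPM. The 41 HEC-like cells with a UMI of at least 2 HEC genes were at 3670 CPM. The lowest summed levels over all cells were 1216 CPM in LN cancer cells and 1289 CPM in primary tumour dendritic cells. The Jchain-high cells held 2.57% of the UMIs of the LN library but 20.3% of its UMIs of the 10 members. The HEC-like cells held 3.67% of the UMIs and 8.64% of those of the members. The heat map of levels by class shows that 8 of the 10 members were highest in Jchain-high cells among all 19 pairs, while Ddit3 and Atf4 were highest in HEC-like cells. The rank of Atf4 changed with totals that left out immunoglobulin genes, an alternative added after the data were seen, since Atf4 was then 518 CPM in Jchain-high cells (470 to 570) and 443 CPM in HEC-like cells.

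**Figure D1:**
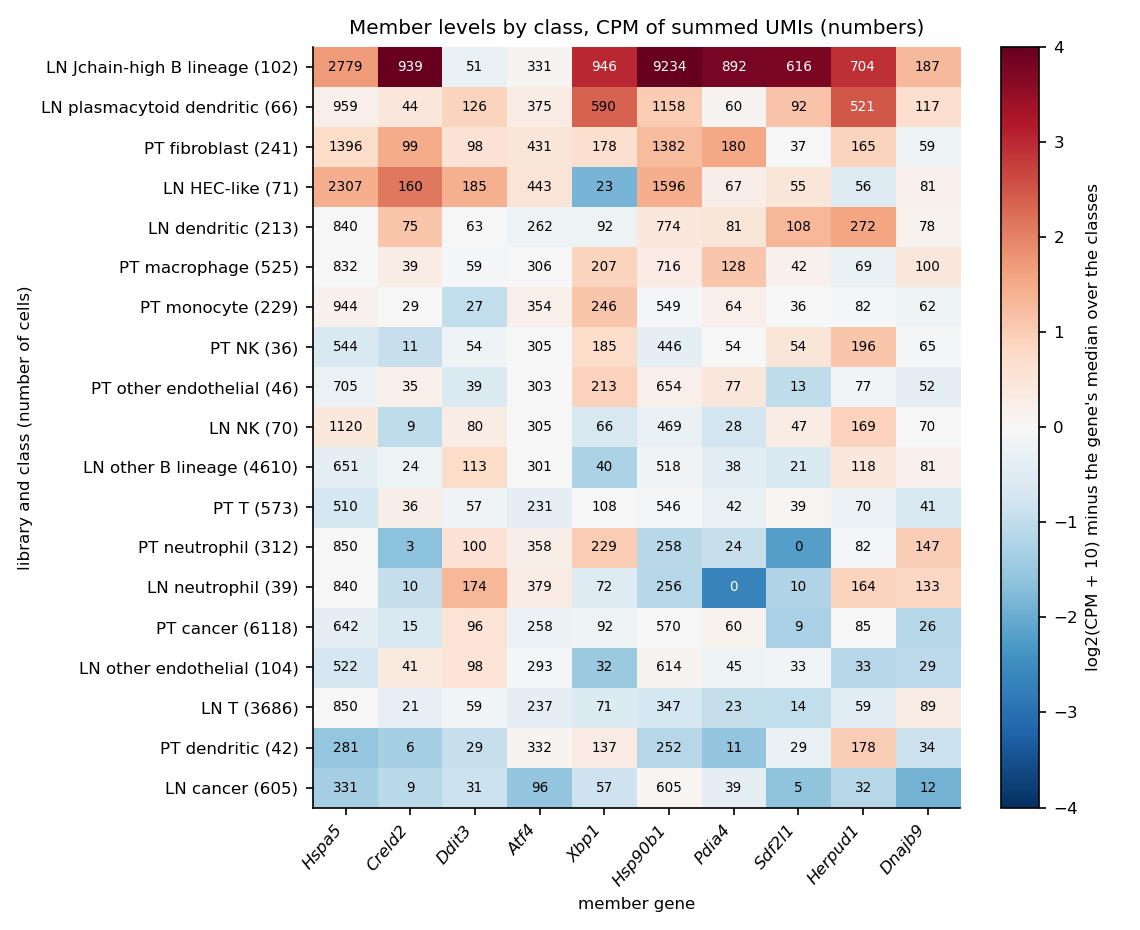
Level of each of the 10 UPR genes (columns) in each class and library (lines), printed in CPM and coloured by log2(CPM + 10) minus the gene's median over the 19 pairs. The Jchain-high line is the highest for 8 genes, with Hsp90b1 at 9234 CPM, and the HEC-like line is high for Hspa5, Creld2, Hsp90b1, Ddit3 and Atf4 but lowest for Xbp1 at 22.7 CPM.

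The chaperones that bind unfolded proteins in the ER lumen had their highest levels in the same cells. Hspa5 encodes BiP, the ER chaperone of the Hsp70 family that holds the UPR sensors inactive (ENSMUSG00000026864, chr2:34771970-34777547, plus strand, GRCm38). It was 2779 CPM in Jchain-high cells (2689 to 2871), 2307 CPM in HEC-like cells (2238 to 2378), 1396 CPM in fibroblasts (1343 to 1451) and 1120 CPM in LN NK cells (982 to 1271). The first 4 classes in this order had intervals that did not overlap, whereas NK cells overlapped with LN plasmacytoid dendritic cells at 959 CPM (854 to 1073). The median over the 19 pairs was 840 CPM, and the lowest levels, 331 CPM in LN cancer cells (323 to 339) and 281 CPM in primary tumour dendritic cells (208 to 371), had overlapping intervals. Hsp90b1 encodes GRP94, the Hsp90 chaperone of the ER (ENSMUSG00000020048, chr10:86690209-86705509, minus strand). It was 9234 CPM in Jchain-high cells (9069 to 9401), 1596 CPM in HEC-like cells (1538 to 1654), 1382 CPM in fibroblasts (1329 to 1436) and 1158 CPM in plasmacytoid dendritic cells (1043 to 1283), all without overlap, against a median of 570 CPM. Its order began with the same 3 classes as that of Hspa5, but not without the 5 cells of each class with most UMIs of the gene. HEC-like cells were then at 823 CPM of Hsp90b1, under fibroblasts (1109 CPM) and plasmacytoid dendritic cells (1058 CPM), and at 1210 CPM of Hspa5, close to fibroblasts (1194 CPM).

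Pdia4, Sdf2l1, Creld2 and Dnajb9 act beside these chaperones, and all 4 were highest in Jchain-high cells. Pdia4 encodes a disulphide isomerase of the ER (ENSMUSG00000025823, chr6:47796141-47813430, minus strand). It was 892 CPM in Jchain-high cells (841 to 945), 180 CPM in fibroblasts (161 to 200), 128 CPM in macrophages (115 to 143) and only 66.6 CPM in HEC-like cells (55.4 to 79.5). HEC-like cells were thus close to the median of 54.4 CPM for this gene. Sdf2l1, a part of ER chaperone complexes (ENSMUSG00000022769, chr16:17130138-17132383, minus strand), was 616 CPM in Jchain-high cells (574 to 661), 108 CPM in LN dendritic cells (91.1 to 127), 91.5 CPM in plasmacytoid dendritic cells (61.3 to 131) and 55.2 CPM in HEC-like cells (45.0 to 67.1). The intervals of the last 2 classes overlapped. Creld2, an ER protein of the disulphide isomerase kind (ENSMUSG00000023272, chr15:88819646-88826683, plus strand), was 939 CPM in Jchain-high cells (887 to 994), 160 CPM in HEC-like cells (142 to 179), 99.4 CPM in fibroblasts (85.6 to 115) and 74.97 CPM in LN dendritic cells (61.2 to 90.9). The median for Creld2 was 29.2 CPM, and the level in LN cancer cells was 8.57 CPM (7.35 to 9.95). Dnajb9 encodes ERdj4, a co-chaperone of BiP (ENSMUSG00000014905, chr12:44205559-44210326, minus strand). It was 187 CPM in Jchain-high cells (165 to 213), which overlapped with primary tumour neutrophils at 147 CPM (111 to 191), and 80.7 CPM in HEC-like cells (68.3 to 94.7). Herpud1 encodes a membrane protein of ER-associated degradation (ERAD) (ENSMUSG00000031770, chr8:94386438-94395377, plus strand). It was 704 CPM in Jchain-high cells (659 to 751), 521 CPM in plasmacytoid dendritic cells (444 to 606), 272 CPM in LN dendritic cells (245 to 301) and 56.3 CPM in HEC-like cells (46.0 to 68.2), where it lay below its median of 84.6 CPM.

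The 3 transcription factors divided the classes differently. Xbp1, the target of IRE1 (ENSMUSG00000020484, chr11:5520659-5525893, plus strand), was 946 CPM in Jchain-high cells (894 to 1001), 590 CPM in plasmacytoid dendritic cells (508 to 681) and 246 CPM in primary tumour monocytes (206 to 291). It was 213 CPM in primary tumour endothelial cells (164 to 270) but 31.8 CPM in the other LN endothelial cells (24.0 to 41.2) and 22.7 CPM in HEC-like cells (16.4 to 30.7). The latter 2 classes were the lowest of all 19 pairs and their intervals overlapped. Ddit3 encodes CHOP, a pro-apoptotic factor downstream of ATF4 (ENSMUSG00000025408, chr10:127290774-127296288, plus strand). It was 185 CPM in HEC-like cells (166 to 206), 174 CPM in LN neutrophils (101 to 279), which held only 17 UMIs, and 51.1 CPM in Jchain-high cells (39.5 to 65.0). Atf4, the factor of the PERK route (ENSMUSG00000042406, chr15:80255184-80257541, plus strand), was 443 CPM in HEC-like cells (413 to 474) and 431 CPM in fibroblasts (401 to 461), with overlapping intervals, and 331 CPM in Jchain-high cells. It varied little among most classes, 18 of which lay between 231 CPM and 443 CPM, and LN cancer cells stood apart at 95.5 CPM (91.3 to 99.9).

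Within the LN, the HEC-like cells were compared with the other endothelial cells of the same library. HEC-like cells had more Hspa5, Creld2, Dnajb9 and Hsp90b1, while Xbp1 was low in both. Hspa5 was 2307 CPM against 522 CPM, a log2 ratio of 2.14 (95% interval 2.04 to 2.25) and a 4.41-fold higher level. Creld2 was 160 CPM against 41.4 CPM, a log2 ratio of 1.94 (1.57 to 2.34). Dnajb9 was 80.7 CPM against 28.9 CPM, a log2 ratio of 1.47 (1.01 to 1.97), and Hsp90b1 was 1596 CPM against 614 CPM, a log2 ratio of 1.38 (1.28 to 1.48). The remaining members stayed under a 2-fold difference. Their log2 ratios were 0.91 for Ddit3, 0.77 for Herpud1, 0.72 for Sdf2l1, 0.59 for Atf4 and 0.55 for Pdia4. For Xbp1, with 42 and 56 UMIs, it was -0.48 with an interval that spans 0 (-1.09 to 0.12). Of the 10 members 4 were at least 2-fold higher and 0 at least 2-fold lower, against 8.15% and 8.33% of the 4428 genes with at least 100 UMIs in these cells, whose median log2 ratio was -0.03. Xbp1 was the only member under 100 UMIs. With HECs defined by a UMI of at least 2 of the 3 HEC genes, a rule added after the data were seen, only 1 member was at least 2-fold higher, as given below.

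**Figure D2:**
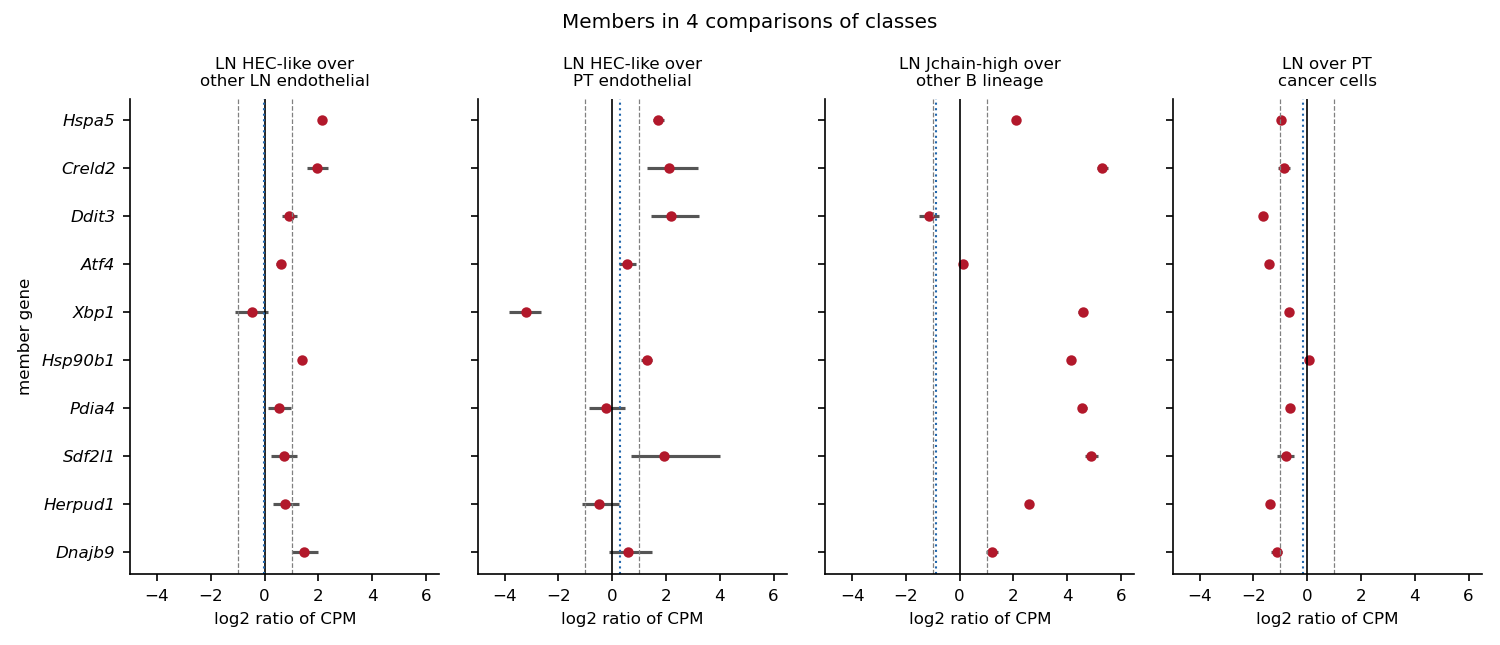
Log2 ratio of CPM for each of the 10 UPR genes in 4 comparisons, with 95% intervals for counting error. Dashed lines mark a 2-fold difference and the blue dotted line the median of all genes tested. The ratios of Jchain-high over other B lineage cells reach 5.30 for Creld2, those of LN over primary tumour cancer cells lie below 0 except for Hsp90b1, and Xbp1 lies at -3.22 in HEC-like against primary tumour endothelial cells.

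Much of the chaperone signal of both LN endothelial classes lay in a few cells. The 5 HEC-like cells with most Hspa5 had 859, 429, 390, 323 and 277 UMIs of it, and they held 11.3% of all UMIs of the class but 53.5% of its Hspa5, 53.1% of its Hsp90b1, 48.8% of its Pdia4 and 47.5% of its Creld2. The same 5 cells held 8.68% of the Atf4 UMIs and none of the 42 Xbp1 UMIs. They had 0, 1, 2, 18 and 0 UMIs of Glycam1, and 3 of the 5 had a UMI of at most 1 of the 3 HEC genes. Hspa5 was 10933 CPM in these 5 cells and 1210 CPM in the other 66. The median HEC-like cell had 613 CPM (quartiles 357 and 1292), far under the summed level of 2307 CPM. The few high cells can be seen in the plot of single cells.

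**Figure D3:**
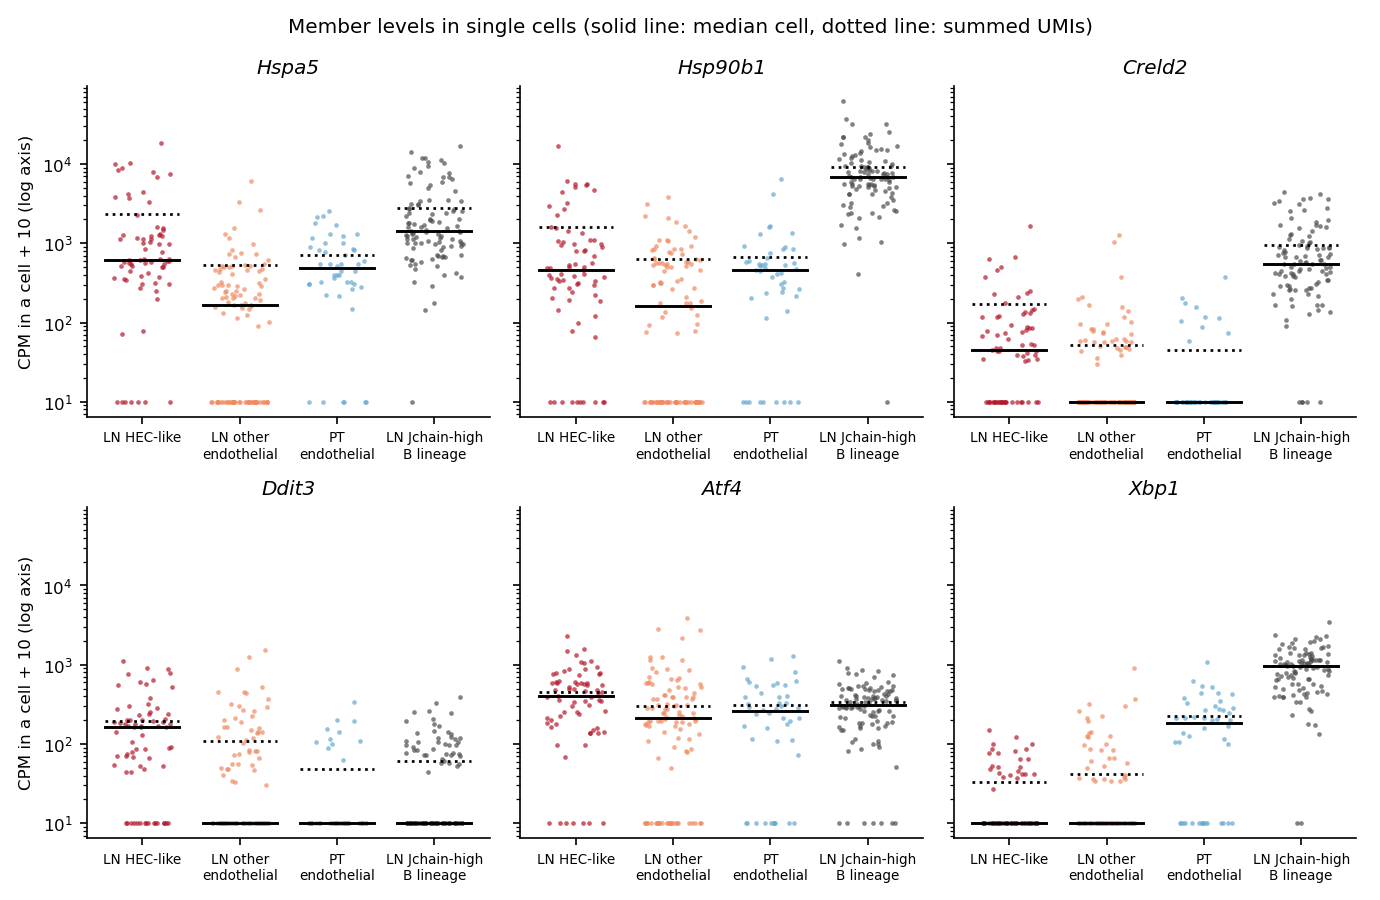
Level of 6 UPR genes in single cells (each point 1 cell, CPM + 10 on a log axis) in LN HEC-like, other LN endothelial, primary tumour endothelial and Jchain-high cells. Solid lines mark the median cell and dotted lines the summed level. For Hspa5 the HEC-like median of 613 CPM lies far under the summed 2307 CPM, and for Xbp1 the HEC-like median cell is at 0.

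The 41 HEC-like cells with a UMI of at least 2 HEC genes had lower summed levels of Hspa5 and Hsp90b1 than the 30 cells with 0 or 1, whose median depth was 15662 UMIs against 30825. Hspa5 was 1623 CPM in the former, with 1986 UMIs, and 3651 CPM in the latter, with 2274 UMIs. The median cells were closer, at 613 CPM and 767 CPM. Hsp90b1 was 1142 CPM and 2486 CPM, but its median cells had the opposite order, at 475 CPM and 423 CPM. The same held for Creld2, with sums of 121 CPM and 236 CPM and medians of 59.99 CPM and 11.3 CPM. Dnajb9 did not share the direction of the sums, at 84.2 CPM and 73.9 CPM with overlapping intervals. Ddit3 was 131 CPM and 292 CPM, and Atf4 392 CPM and 543 CPM in the same order. Xbp1 was 24.5 CPM and 19.3 CPM. When HECs were defined by a UMI of at least 2 of the 3 genes in any LN endothelial cell, a rule added after the data were seen, 44 cells were set against 131. The log2 ratio of Hspa5 was then 0.45, and of the 10 members only Dnajb9, at 1.07, was at least 2-fold higher. In the other LN endothelial cells the 5 cells with most Hspa5 held 50.8% of it, and the remaining cells were at 289 CPM, against 1210 CPM in the remaining HEC-like cells. Without the 5 cells of each class that had most UMIs of each gene, another alternative added after the data were seen, the log2 ratio of Hspa5 was 2.07 and 5 members were at least 2-fold higher. Hspa5, Creld2 and Dnajb9 were again among them, Ddit3 (1.32) and Herpud1 (1.04) were further ones, Hsp90b1 was at 0.88 and Pdia4 at -0.15.

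The members were also set against each other from cell to cell. Over the 71 HEC-like cells, Spearman's rho of CPM was highest for Creld2 with Pdia4 (0.71) and for Hspa5 with Hsp90b1 (0.70), and 39 of the 45 pairs of members were above 0, with a median of 0.19. In Jchain-high cells the median was 0.23, and in the other LN endothelial cells 0.31. It was lower in primary tumour endothelial cells (0.11), primary tumour cancer cells (0.11) and LN cancer cells (0.03, with 29 of 45 pairs above 0). Cells of a class share a library and differ in depth, and in sparse counts deeper cells have more genes detected, so the values are given as a description, and no other genes were set beside them. A UMI of all 10 members was found in 35 of the 102 Jchain-high cells (34.3%), in 6 of the 71 HEC-like cells (8.45%) and in 3 of the 104 other LN endothelial cells. Median depth was 12124.5, 29490 and 10017.5 UMIs per cell in the same order, so the HEC-like cells were the deepest of the 3.

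The other genes of the pathway were read from lists in the comparison of HEC-like with other LN endothelial cells, where 8.15% of all genes were at least 2-fold higher and 8.33% lower. The targets of the integrated stress response (ISR) and ATF4 were mixed, with 4 of 13 genes at least 2-fold higher and 0 lower. Ddit4, an inhibitor of mTORC1, had a log2 ratio of 4.07 and the stress-induced factor Atf3 of 2.72, but the serine synthesis enzymes Psat1 and Phgdh had ratios of -0.96 and -0.51. Among further ER chaperones 3 of 12 were at least 2-fold higher, led by the isomerase Pdia6 (1.09) and the lectin chaperone Calr (1.04), while Txndc5 (-0.57) and Fkbp2 (-0.26) were the lowest. None of 11 ERAD genes, 12 translocation genes and 2 sensor genes passed a 2-fold difference, with Selenok the highest ERAD gene at 0.98, and in lists of this size such counts lie near the share over all genes. Of the immediate early genes, which tissue dissociation is known to induce, 2 of 6 were at least 2-fold higher in HEC-like cells. These were Jun (1.90) and Junb (1.71), while Fos (-0.35) and Ier3 (0.51) were the lowest, and 5 of the 6 had ratios above 0. The list summed to 3516 CPM against 1227 CPM, with Jun alone at 2585 CPM and 695 CPM. Of the cytosolic heat shock genes 0 of 6 were higher and 1 was lower, with sums of 4123 CPM and 5250 CPM. The part of dissociation in the result was not tested. Plasma cell markers summed to 23.3 CPM in HEC-like cells, where Mzb1, Prdm1 and Tnfrsf17 were at 0, and to 21.0 CPM in the other LN endothelial cells.

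Against endothelial cells of the primary tumour, HEC-like cells had more Ddit3, Creld2, Sdf2l1, Hspa5 and Hsp90b1 and far less Xbp1. Xbp1 was 22.7 CPM in HEC-like cells and 213 CPM in primary tumour endothelial cells, a log2 ratio of -3.22 (-3.82 to -2.64) and a 9.30-fold lower level. The other LN endothelial cells were also lower in Xbp1 than those of the tumour, with a log2 ratio of -2.74 (-3.28 to -2.21), where 27.9% of genes were at least 2-fold higher and 19.2% lower. Ddit3 was 185 CPM against 38.6 CPM in the tumour, a log2 ratio of 2.20 (1.44 to 3.23). Hspa5 was 2307 CPM against 705 CPM (1.71, 1.51 to 1.91), and Creld2 was 160 CPM against 35.4 CPM (2.11, 1.31 to 3.19). The log2 ratio of Hsp90b1 was 1.28, and that of Sdf2l1 was 1.94 (0.70 to 4.0), with only 4 UMIs in the tumour cells. Pdia4 (-0.24), Herpud1 (-0.48) and Dnajb9 (0.61) had intervals that span 0, and Atf4 was 0.54 (0.24 to 0.87). In all, 5 of the 10 members were at least 2-fold higher and 1 lower, but 28.9% and 17.9% of 3151 genes were too, and the median log2 ratio of all genes was 0.29. Hsp90b1 fell under a 2-fold difference in 3 alternatives, at 0.95 with the mean of single-cell CPM, at 0.82 with HECs defined by 2 of the 3 genes and at 0.80 without the 5 cells of each class with most UMIs of each gene, the last 2 added after the data were seen. The tissue, the library and the digestion cannot be told apart in this comparison. Among the ATF4 targets 8 of 12 were at least 2-fold higher in HEC-like cells, led by Phgdh (4.67) and Shmt2 (3.40), which had 2 and 3 UMIs in the tumour cells, and 1 was lower. The other LN endothelial cells also had 5 of 10 ATF4 targets higher than those of the tumour and 1 lower, led by the same pair of genes, and Ddit3 at a log2 ratio of 1.29 (0.50 to 2.32). Genes known to respond to dissociation were mostly lower in HEC-like cells, 4 of 8 cytosolic heat shock genes and 5 of 7 immediate early genes, with 1 higher in each list. Hspa1a was 0.542 CPM (1 UMI) in HEC-like cells and 663 CPM in the tumour, and Fosb was 16.8 CPM and 728 CPM, a log2 ratio of -5.42.

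In the B lineage of the LN, the Jchain-high cells had more of the 7 chaperone and degradation genes and of Xbp1, and less Ddit3. Creld2 was 939 CPM against 23.8 CPM in other B lineage cells, a log2 ratio of 5.30 (5.10 to 5.51) and a 39.4-fold higher level. Sdf2l1 was 616 CPM against 20.6 CPM (4.90, 4.68 to 5.13), Xbp1 was 946 CPM against 39.6 CPM (4.58, 4.41 to 4.75) and Pdia4 was 892 CPM against 37.8 CPM (4.56, 4.39 to 4.73). Hsp90b1 had a log2 ratio of 4.16, Herpud1 of 2.58, Hspa5 of 2.09 and Dnajb9 of 1.21. Atf4 was 331 CPM against 301 CPM, a log2 ratio of 0.14 whose interval spans 0 (-0.01 to 0.28). Ddit3 was the only member that was lower, at 51.1 CPM against 113 CPM, a log2 ratio of -1.13 (-1.52 to -0.78). Thus 8 of the 10 members were at least 2-fold higher and 1 lower, where 7.15% and 45.3% of 6983 genes were, and the median log2 ratio of all genes was -0.88.

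Immunoglobulin genes took 36.2% of the UMIs of Jchain-high cells and 1.12% of those of other B lineage cells, which lowers the CPM of every other gene in the former. With totals that left out the 391 immunoglobulin genes, an alternative added after the data were seen, 8 members were higher and 0 lower, against 14.1% and 23.5% of 6965 genes, and Ddit3 had a log2 ratio of -0.50. The levels of the chaperones were spread over more cells than in the HEC-like class. The 5 Jchain-high cells with most Hspa5 held 27.4% of its UMIs, and each of them had a UMI of all 10 members. Without the 5 cells of each class with most UMIs of each gene, Dnajb9 was at 0.97, so that 7 members were at least 2-fold higher. The median Jchain-high cell had 1424 CPM of Hspa5, 6840 CPM of Hsp90b1 and 951 CPM of Xbp1. A subcluster of 88 other B lineage cells, singled out after its values were seen and led by Basp1, Pclaf and Rgs13, had a median of 6176.5 UMIs, 98.4 CPM of Xbp1 (77.2 to 123) and 456 CPM of Hspa5 (409 to 507), so that Xbp1 there lay above, and Hspa5 below, the level of other B lineage cells as a whole.

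Most genes of the ER lists were higher with the members in Jchain-high cells, where 7.15% of all genes were at least 2-fold higher. Among further ER chaperones 14 of 15 were at least 2-fold higher, led by the thioredoxin-domain protein Txndc5 (4.20) and the ER stress-induced factor Manf (3.94), and Canx was the exception at 0.23. Of the ERAD genes 11 of 14 were higher, with Derl3 at 6.98 and Edem2 at 5.04, while Ufd1 (0.60) and Vcp (0.70) were the lowest. Of the translocation genes 12 of 14 were higher, with Ssr4 at 3.64 and Ssr2 at 3.39 and with Sec62 at -0.56. The ATF4 targets were divided, with 5 of 12 higher, led by Chac1 (5.49) and Asns (3.03), and Ppp1r15a lower at -1.43. The sensors were divided too, with 4 of 9 higher and 2 lower. The factor Creb3l2 had a log2 ratio of 5.29 and Atf6 of 1.35, but Eif2ak3, which encodes PERK, was -1.49 and the protease Mbtps2 was -1.39. Cytosolic heat shock genes were at least 2-fold lower in 4 of 7 cases, where 45.3% of all genes were, and higher in none. With totals without immunoglobulin genes, added after the data were seen, no gene of the chaperone, ERAD, translocation, ATF4, sensor and heat shock lists was at least 2-fold lower, against 23.5% of all genes. Ppp1r15a was then -0.80, Eif2ak3 -0.85 and Mbtps2 -0.76, Sec62 turned to 0.08, and the higher genes were 14 of 15, 14 of 14, 13 of 14, 7 of 12, 4 of 9 and 0 of 7 in the same order of lists, against 14.1% of all genes. The counts by list with all UMIs in the totals are drawn in the plot of pathway lists.

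**Figure D4:**
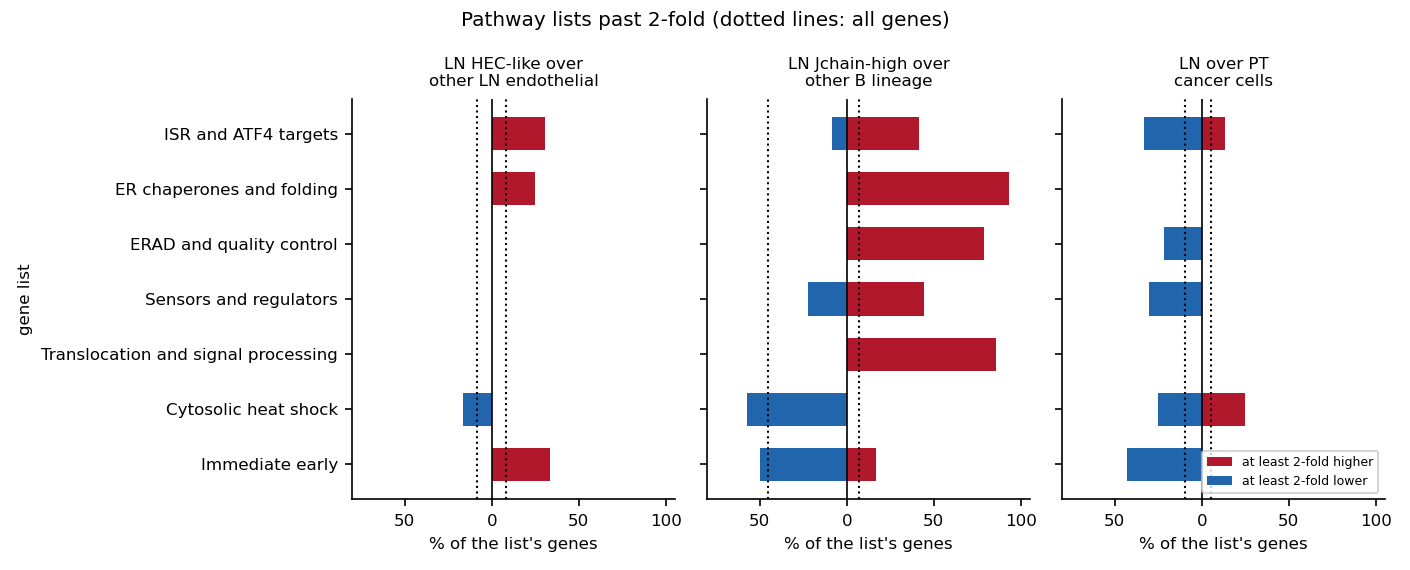
Percent of the genes of each list that were at least 2-fold higher or lower in 3 comparisons, with dotted lines for all genes tested. In Jchain-high cells 14 of 15 chaperones, 11 of 14 ERAD genes and 12 of 14 translocation genes were higher, whereas in HEC-like cells 0 of 11 ERAD and 0 of 12 translocation genes were.

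Set side by side, the 2 classes with the highest levels differed in which members were high. Relative to HEC-like cells, Jchain-high cells had log2 ratios of 5.36 for Xbp1, 3.74 for Pdia4, 3.64 for Herpud1, 3.47 for Sdf2l1, 2.55 for Creld2 and 2.53 for Hsp90b1. For Hspa5 the ratio was only 0.27 (0.20 to 0.33). Atf4 (-0.42, -0.59 to -0.25) and Ddit3 (-1.85, -2.26 to -1.47) were lower. Of the members 7 were at least 2-fold higher and 1 lower, against 10.4% and 50.1% of 3552 genes with a median log2 ratio of -1.01. No ATF4 target of 13 was at least 2-fold higher in Jchain-high cells and 9 were lower. Immunoglobulin genes, at 36.2% of the UMIs of Jchain-high cells and 0.00818% of those of HEC-like cells, bear on every ratio here. With totals without them, added after the data were seen, Atf4 turned to 0.23 (0.05 to 0.40) and Hspa5 was 0.92, while Ddit3 stayed lower at -1.20. The members were then again 7 higher and 1 lower, against 17% and 30.7% of 3536 genes with a median log2 ratio of -0.36, and of the ATF4 targets 1 was higher and 6 were lower.

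Cancer cells were compared between the tissues, since metastatic cells of the LN are the study's subject. In 605 LN cancer cells most members were lower than in 6118 primary tumour cancer cells. Ddit3 was 30.7 CPM against 96.5 CPM, a log2 ratio of -1.65 (-1.77 to -1.53). Atf4 was 95.5 CPM against 258 CPM (-1.43, -1.50 to -1.37), and Herpud1 was 32.5 CPM against 84.6 CPM (-1.38, -1.50 to -1.27). Dnajb9 was 11.9 CPM against 26.2 CPM (-1.14, -1.34 to -0.95). Hspa5 (-0.96), Creld2 (-0.85), Sdf2l1 (-0.79), Xbp1 (-0.69) and Pdia4 (-0.64) were lower by less than 2-fold, and Hsp90b1 was close to equal at 0.09 (0.06 to 0.11). Thus 0 of 10 members were at least 2-fold higher and 4 lower, against 5.58% and 9.33% of 10966 genes with a median log2 ratio of -0.17. The count of lower members was 5 with no upper limit on detected genes (1309 against 6745 cells). It was 6 with only the deeper cancer cells of both libraries (454 against 848 cells), an alternative added after the data were seen.

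Most LN cancer cells stood apart from those of the primary tumour. Of the 605 cells, 510 formed a cluster with Hspa5 at 293 CPM, Atf4 at 84.7 CPM and Ddit3 at 27.3 CPM. The 52 LN cells that fell into a cluster with 1047 primary tumour cells had Hspa5 at 757 CPM (708 to 809), which overlapped with 784 CPM (770 to 798) in the tumour cells of that cluster. Their Ddit3 of 74.6 CPM (59.7 to 92.0) also overlapped with 61.4 CPM (57.5 to 65.4), whereas their Atf4 was lower, at 194 CPM (169 to 221) against 256 CPM (248 to 264). Another 23 LN cells shared a cluster with 1861 tumour cells and were lower than these, with Hspa5 at 341 CPM (288 to 402) against 669 CPM (657 to 681) and Ddit3 at 11.8 CPM (3.82 to 27.5) against 85.8 CPM (81.5 to 90.4). Among the 6 clusters that held most primary tumour cancer cells, Hspa5 ranged from 494 CPM to 784 CPM and Ddit3 from 61.4 CPM to 152 CPM. Different clusters therefore held most of the cancer cells of the 2 libraries. Median depth was 35073 UMIs in LN and 14073 UMIs in primary tumour cancer cells. Immediate early genes summed to 1200 CPM in LN and 2662 CPM in tumour cancer cells, and Fosb had a log2 ratio of -3.34, so that these genes, known to respond to dissociation, were lower with the members. Of the 8 cytosolic heat shock genes, the other list of this kind, only Hspb1 (2.52) and Hspa1a (2.19) had log2 ratios above 0. Both were at least 2-fold higher but scarce, at 4.09 CPM and 5.81 CPM in LN cancer cells. Hsph1 (-1.40) and Dnajb1 (-1.28) were at least 2-fold lower, and the list summed to 3461 CPM in LN and 4514 CPM in tumour cancer cells. Of all genes 5.58% were at least 2-fold higher and 9.33% lower. The part of digestion, which differed between the tissues, was not tested.

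The lists of the cancer cells are read against the 5.58% of all genes that were at least 2-fold higher and the 9.33% that were lower. None of 15 ER chaperones and 14 translocation genes passed a 2-fold difference, counts that lie near those shares. The ATF4 targets were split, with 5 of 15 lower, among them Chac1 (-2.54) and Atf3 (-1.94), and 2 higher, the cystine transporter Slc7a11 (1.53) and Phgdh (1.31). Of the ERAD genes 3 of 14 were lower, with Derl3 at -2.02 and the ligase gene Syvn1 at -1.21, and of the sensors 3 of 10, with Atf6b at -1.36 and Ppp1r15b at -1.15.

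Of the other classes found in both libraries, dendritic cells differed most in the chaperones. Hspa5 was 840 CPM in 213 LN dendritic cells and 281 CPM in 42 of the primary tumour, a log2 ratio of 1.57 (1.17 to 2.02). Hsp90b1 was 774 CPM against 252 CPM (1.60, 1.18 to 2.09). Creld2 had 103 UMIs in the LN and 1 in the tumour, a log2 ratio of 3.13 with a wide interval (1.20 to 9.03). Among the 9 members with at least 100 UMIs, 6 were at least 2-fold higher in the LN and 0 lower, against 9.86% and 10.3% of 2029 genes. Immediate early genes were higher there too, with 4 of 7 past a 2-fold difference and sums of 2478 CPM and 1690 CPM. Signals of plasma cells differed as well. Immunoglobulin genes took 2.34% of the UMIs of LN and 0.0109% of those of tumour dendritic cells, and the 6 plasma cell markers summed to 1246 CPM and 120 CPM, with Jchain, Mzb1 and Tnfrsf17 at 0 in the tumour. The 6 higher members, Hspa5, Hsp90b1, Creld2, Sdf2l1, Pdia4 and Dnajb9, were also those with their highest levels in Jchain-high cells, beside Herpud1 and Xbp1. The part of immediate early genes and of plasma cell RNA in the difference was not tested. T cells showed no common direction. Hspa5 was 850 CPM in the LN and 510 CPM in the tumour (0.74, 0.62 to 0.86), and Dnajb9 was 88.7 CPM against 41.4 CPM (1.09, 0.69 to 1.53). Sdf2l1 was 13.5 CPM against 39.0 CPM (-1.54, -2.00 to -1.03). Thus 1 of 10 members was at least 2-fold higher and 1 lower in T cells, against 5.74% and 22.1% of 7643 genes. Different clusters held most T cells of the 2 libraries, since 500 of 573 tumour T cells fell into a cluster led by Cd8a with 25 LN cells, while 1745 and 1271 of the 3686 LN T cells fell into clusters led by Lef1 and 549 into a cluster led by Tnfrsf4. In NK cells Hspa5 was 1120 CPM against 544 CPM (1.03, 0.60 to 1.51), where 8.52% of 411 genes were at least 2-fold higher and 3.89% lower, and only Hsp90b1 among the other members reached 100 UMIs. In neutrophils 0 of the 3 members with 100 UMIs, Hspa5, Hsp90b1 and Atf4, passed a 2-fold difference either way, against 12.2% and 26.7% of 666 genes.

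Across the 19 pairs of class and library, some members followed each other closely. Pearson's r of log2(CPM + 10) was highest for Creld2 with Hsp90b1 (0.95) and lowest for Ddit3 with Xbp1 (-0.31). Of 9090 genes ranked by r with the mean profile of the members, the genes outside the members and lists that came highest were Fndc3a (0.80), Ddost (0.79), Hspa13 (0.79) and Erp44 (0.77). Ddost encodes a subunit of the oligosaccharyltransferase and Erp44 a thiol chaperone of the early secretory pathway. The 19 points come from 2 libraries and differ in depth and number of cells, so the values are descriptions.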

How the data were processed

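Single-cell RNA was counted in 1 primary tumour and 1 lymph node library. The deposited matrices hold raw UMI counts as whole numbers. Cell Ranger, as run by the authors on GRCm38, gave the counts, in version 5.0.0 per the file headers and 2.1.1 in the submitters' processing notes. The study's reporting summary names a later version than either. The files give no cell types and no map from cells to mice.

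Cells with 201 to 6000 detected genes and at most 5% mitochondrial UMIs were kept, as in the study's methods. Doublets were scored with Scrublet in scanpy 1.11.5 (expected rate 6%). The automatic threshold removed 391 primary tumour cells (4.27%). It marked under 0.5% in the lymph node, so the 616 cells (5.98%) above the 94th percentile were removed there. Cells of both libraries were clustered together (2000 variable genes per library, 30 principal components, 15 neighbours, Leiden resolution 1, seed 1, igraph 0.11.9) without the UPR genes and pathway lists, after regression of the cell cycle scores (lists of Seurat 5.3.0). Clusters were named from marker lists, 618 primary tumour cells (7.06%) and 88 lymph node cells (0.908%) stayed unnamed, and the naming rule was set with the data in view. Endothelial cells were clustered again on 20 components. A subcluster was called HEC-like where Glycam1, Chst4 and Fut7 each reached at least 25% of their highest level in any subcluster.

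Levels are CPM of summed UMIs with exact Poisson intervals. Log2 ratios added 0.5 count to each sum, with exact conditional binomial intervals. A 2-fold difference stands in for a test, since each tissue had 1 library, and the share of all genes past it was taken over genes with at least 100 UMIs in the compared cells. Interval coverage was checked on simulated Poisson counts, the model that the intervals assume, so the check does not cover spread between cells or mice. Genes of a list were named from its 2 highest and 2 lowest log2 ratios among genes with at least 100 UMIs. The UPR genes, lists and comparisons were chosen with earlier results of these data known. Further software was R 4.3.3, matplotlib 3.10.9, scikit-learn 1.9.0, anndata 0.12.19, pandas 2.3.3, scipy 1.17.1, numpy 2.4.6 and python 3.11.15. The study's DoubletFinder, Harmony and inferCNV were not used here, and whether sorted endothelial cells entered the lymph node library is not given in the sources used here. Alternatives changed the cell limits, doublet removal, resolution, class rules, totals and the cells with most UMIs.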

Additional observations from a re-analysis of the deposited data

Results flagged for a closer look

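The 10 UPR genes were also counted in deposited cells that the limits and doublet removal left out of the main comparisons. These cells entered only some alternatives. Each such group of cells showed a summed level above the limit that a count of 0 allows. Any group with many UMIs of these genes passes that limit, so it sets none of them apart. In the primary tumour the summed level was 1997 CPM in cells over 5% mitochondrial UMIs, 1805 CPM in cells over 6000 detected genes and 1859 CPM in the removed doublets, against 1921 CPM in the kept cells. In the lymph node it was 1689 CPM, 1417 CPM and 1727 CPM in the same order, against 2113 CPM in the kept cells. The removed cells of the lymph node were thus lower in the sum than the kept cells, and those of the primary tumour lay on both sides. These sums were not split by cell class, and the part of the mix of classes was not tested.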

How the results depend on the processing

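No paired analysis was possible because each tissue had 1 library. Alternatives were run for HEC-like against both other endothelial classes, Jchain-high against other B lineage cells and cancer cells between the tissues. Jchain-high against HEC-like cells was varied only by totals without immunoglobulin genes, and the other comparisons were not varied. No log2 ratio of a member past a 2-fold difference changed sign under any alternative tried. Against the other LN endothelial cells, 4 members were at least 2-fold higher in HEC-like cells. This count was 7 with no upper limit on detected genes (84 against 209 cells) and 1 with HECs defined by a UMI of at least 2 of the 3 HEC genes, a rule added after the data were seen. With the mean of single-cell CPM, 6 members were at least 2-fold higher in place of 4 and 1 lower in place of 0, and against primary tumour endothelial cells 4 were higher in place of 5 and 2 lower in place of 1. The number of members with their highest LN level in HEC-like cells was 2, and 1 with doublets kept, with HECs defined by 2 of the 3 genes or with totals without immunoglobulin genes, where Atf4 was highest in Jchain-high cells. In Jchain-high cells the count of members at least 2-fold lower was 1, and 0 with these cells chosen by Jchain UMIs or with totals without immunoglobulin genes. The count of higher members there was 8, and 7 without the 5 cells with most UMIs of each gene. The causes of these changes were not tested. Ratios under 2-fold changed sign in at least 1 alternative for Pdia4 in both HEC-like comparisons, Ddit3 against other LN endothelial cells, Herpud1 against tumour endothelial cells, Atf4 in both Jchain-high comparisons and Hsp90b1 in cancer cells. Depth limits the smaller classes: LN neutrophils had 0 UMIs of Pdia4, which allows a level of up to 30.7 CPM (3 counts), and 1 UMI each of Creld2 and Sdf2l1.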
